A study of Rattus norvegicus with 14 samples.

Results

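The genes described here encode pore-forming subunits of delayed rectifier potassium channels, namely the Kv1 subunits Kcna1, Kcna2, Kcna3, Kcna5 and Kcna6, the Kv2 subunit Kcnb2, and the Kv3 subunits Kcnc1 and Kcnc2. Every probe set whose platform annotation named 1 of these 8 genes and no other was taken, whatever its level, which gave 14 of the 15923 probe sets on the array. Kcnc2 had 6 of them, Kcna6 had 2 and the other genes 1 each. Of the 14, 8 probe sets of Kcna1, Kcna6, Kcnc1 and Kcnc2 lay above the dim cutoff and were tested, and 6 lay below it, so that Kcna2, Kcna3, Kcna5 and Kcnb2 had no probe set above it.

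RNA came from the microdissected hippocampal CA3 subfield of 14 male Long-Evans rats aged 3 to 4 months, 7 per group and 1 Affymetrix RAE230A array per animal. All rats had learned a standard water maze and, 2 to 3 weeks later, swam 8 trials with 8 min between them in a maze at a new site. The learning group, labelled Learning Activated, had orienting cues and a visible platform in a constant place. The control group had a visible platform that moved between trials and no informative cues. All had a probe trial of 90 s without the platform 1 h after the last trial, and were killed directly afterwards. Cues and platform movement differed together, so their effects cannot be told apart. The comparison of learning with control asks whether encoding a new place was accompanied by a change in CA3 transcripts. In tissue RNA, fewer cells of a type and less RNA per cell cannot be told apart.

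Delayed rectifiers open when a neuron depolarizes and let potassium out, which repolarizes the membrane after an action potential. Kv1 channels, related to the fly gene Shaker, open near threshold and sit mainly on axons and terminals, where they limit repeated firing and transmitter release. Kv2 channels, related to Shab, sit on the cell body and proximal dendrites and act during sustained firing. Kv3 channels, related to Shaw, open only at strong depolarization and close quickly, and are best known in fast-spiking interneurons, among them the parvalbumin cells of the hippocampus.

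None of the 8 tested probe sets passed, with learning minus control adjusted p-values between 0.0937 and 0.884 (limma with Benjamini-Hochberg adjustment over all 9520 tested probe sets). Across the whole array 3.35% of the tested probe sets passed, 2.55% higher and 0.798% lower in the learning group. At an unadjusted p under 0.05 there were 6 of the 8, 5 higher and 1 lower, where 19.9% of all tested probe sets lay, 9.34% higher and 10.6% lower. Of these 6, 5 were probe sets of the single gene Kcnc2, which measure the same locus, and 3 of those 5 lay just above the dim cutoff. At 2 of these 3, 1370558_a_at and 1370557_a_at, the control mean lay below the cutoff of 3.88 and the learning mean above it, so the filter kept them through the group where they are higher, and nothing is read from the count of 6 against the share of the array. The median log2 fold change over the 8 was 0.16, and over all tested probe sets it was -0.017. Of the 8, 6 had a fold change above 0 and 2 below, and over all tested probe sets 3995 lay above 0 and 5525 below. The same limits hold for this median and these directions, and nothing is read from them against the array.

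**Figure D1:**
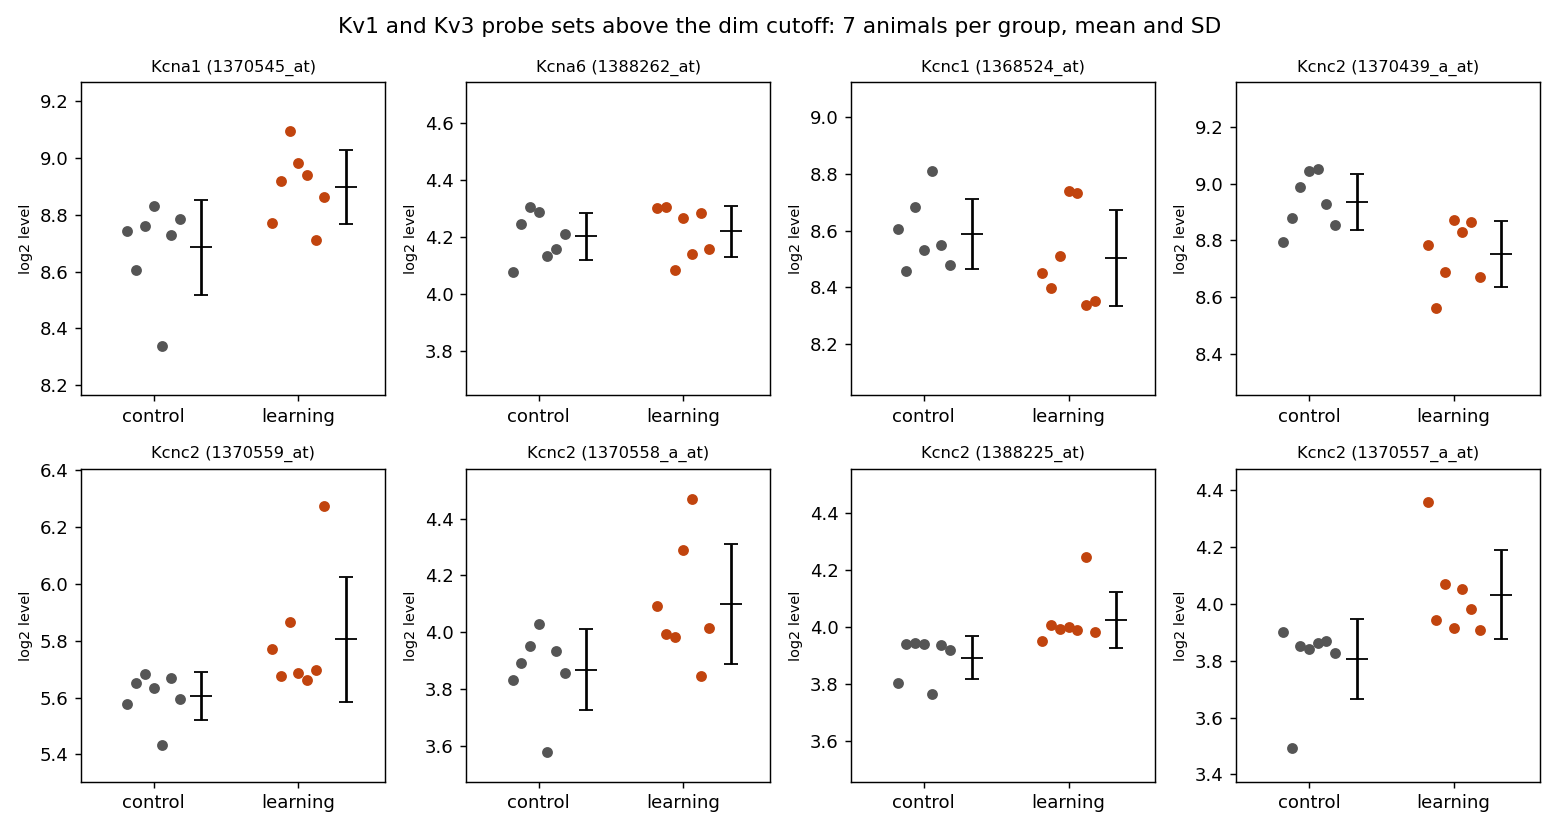
Log2 level (vertical axis, the same span in every panel) in each animal of the control and learning groups, 1 panel for each of the 8 probe sets above the dim cutoff, with the mean and SD of 7 animals beside the points. The groups are apart in the panels of the Kcnc2 probe sets 1388225_at and 1370557_a_at and overlap in the other panels.

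Control replicate 5 stood apart from the other arrays. Its median correlation with the others was 0.989, against 0.992 to 0.994 for the remaining 13, and it had the highest 3'/5' ratio of Gapdh, of hexokinase and of beta-actin, ratios that measure RNA integrity and amplification length. Of 5 measured CA3 markers, Bok, Grik4 and Spock1 lay above the dim cutoff and Socs2 and St18 below it. CA1 markers lay above it in 5 of 5 measured genes and dentate granule markers in 3 of 6. The mean level of the marker lists did not pass for CA3, CA1, dentate granule cells or interneurons (exact permutation p between 0.104 and 0.862). Of the CA3 markers, Spock1 rose by 0.28 on the log2 scale (limma adjusted p = 0.0257). Grik4 had -0.015 and Bok 0.011 (limma adjusted p = 0.936 and 0.953). The endothelial list had a mean difference of -0.15 (exact permutation p = 0.0216, adjusted p = 0.0755). The Gapdh ratio was lower in the learning group (0.45 ± 0.05 against 0.51 ± 0.06 on the log2 scale, n = 7 each, exact permutation p = 0.0443, adjusted p = 0.124 over 14 such measures). Of 10 choroid plexus markers, 3 lay above the cutoff, and their mean differed by -0.94 (exact permutation p = 0.00117, adjusted p = 0.00816). Of these, Ttr fell (-2.09, limma adjusted p = 0.0124), and Igfbp2 (-0.70, limma adjusted p = 0.237) and Enpp2 (-0.029, limma adjusted p = 0.844) did not pass. Spike-in probe sets were brighter by 0.20 (exact permutation p = 0.00524, adjusted p = 0.0245). The part of these measures in the values below was not tested beyond the settings named.

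Kcna1 encodes the Kv1 subunit that sets the threshold for firing in many axons, and its loss causes episodic ataxia and seizures. At its only probe set, 1370545_at, the control animals had a lowest log2 level of 8.34, a median of 8.74 and a highest of 8.83. In the learning animals these were 8.71, 8.92 and 9.10. All 7 learning animals lay above the control mean, 5 of them above the highest control animal, and the groups overlapped. The means were 8.90 ± 0.13 in learning and 8.68 ± 0.17 in control animals, a log2 fold change of 0.21 (SE 0.0756, 95% interval 0.052 to 0.37), which did not pass (limma adjusted p = 0.133). The lowest value, 8.34, belonged to control replicate 5, and without that array the difference was 0.15 (limma adjusted p = 0.180). Adjusted for the Gapdh ratio it was 0.080 (limma adjusted p = 0.619).

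Kcna6, another Kv1 subunit of brain, had 2 probe sets, both annotated with the same sequence record. At 1388262_at the lowest, median and highest log2 levels were 4.08, 4.21 and 4.31 in control animals and 4.08, 4.27 and 4.30 in learning animals. The groups covered nearly the same range. The log2 fold change was 0.017 (SE 0.0480, 95% interval -0.085 to 0.12, limma adjusted p = 0.884). In the deposited values this interval lay below the 0.21 seen at Kcna1. The mean of this probe set, 4.21, lay close to the dim cutoff of 3.88, so a change of that size in the transcript is not excluded. The other probe set, 1388263_at, was dim, with 2.43 ± 0.02 in control and 2.44 ± 0.01 in learning animals.

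The remaining Kv1 genes and the Kv2 gene gave only dim signals. Kcna2, a main partner of Kcna1 in axonal channels, had a log2 level of 2.49 ± 0.01 in control and 2.51 ± 0.05 in learning animals. Its learning values ran from 2.49 to 2.63, and learning replicate 7 held the highest, while the control values ran from 2.48 to 2.50. Kcna3, a subunit best known from lymphocytes and also made in brain, had 2.29 in both groups, with an SD of 0.0112 in control and 0.00485 in learning animals. Kcna5, a subunit of heart and smooth muscle, had 2.63 ± 0.03 in control and 2.61 ± 0.01 in learning animals, all 7 learning animals lying below the control mean. Kcnb2, a Kv2 subunit of the cell body, had 2.52 ± 0.01 in control and 2.51 ± 0.01 in learning animals.

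Over all 6 dim probe sets, mean log2 levels ran from 1.85 to 2.62 against a cutoff of 3.88, which placed them between percentiles 3.22 and 20.8 of the array. Fitted without the filter, their log2 fold changes ran from -0.022 to 0.022 (limma adjusted p between 0.547 and 0.925 over 15866 probe sets, of which 0.996% passed). The 95% intervals lay between -0.052 and 0.063. None of the 6 had an unadjusted p under 0.05. Such values do not show whether the transcripts are present, and a probe set near background can miss a change in a transcript that is there. These intervals describe the deposited values only.

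**Figure D2:**
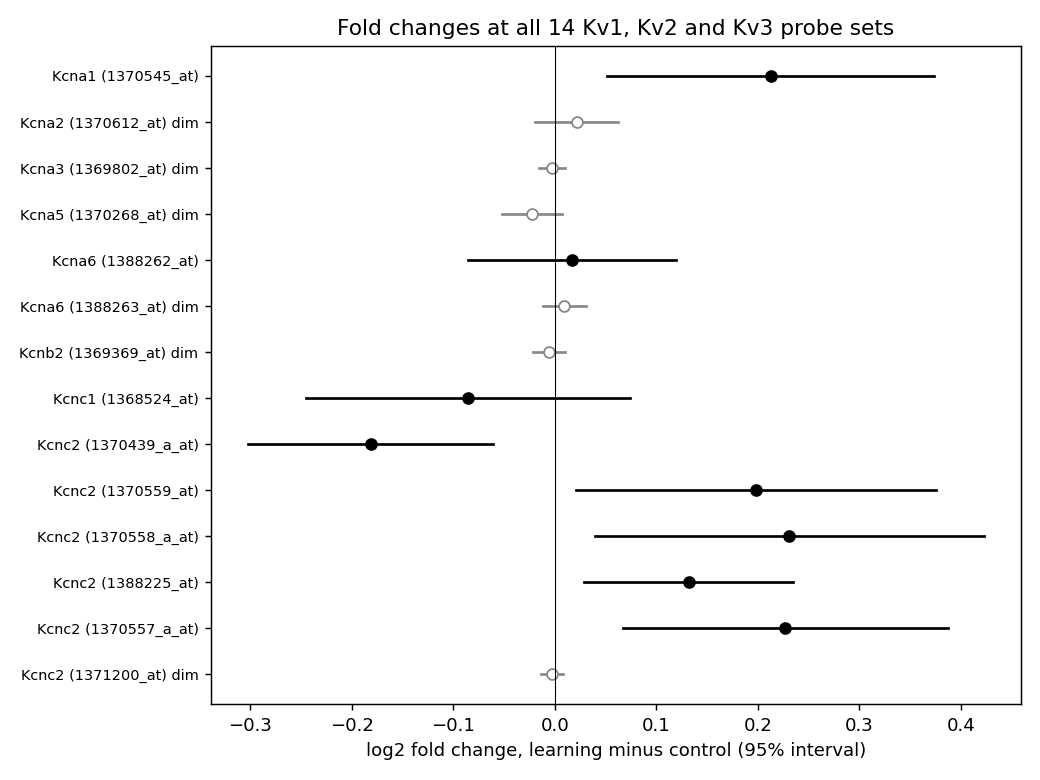
Log2 fold change, learning minus control (horizontal axis), with its 95% interval for the 14 probe sets. Filled points were tested above the dim cutoff and open points are dim. For Kcnc2 the interval of 1370439_a_at lies wholly below 0, around -0.18. Those of 4 other Kcnc2 probe sets lie wholly above 0, around values between 0.13 and 0.23. The interval of Kcna1 also lies above 0, from 0.052 to 0.37. The intervals are not adjusted for the number of probe sets, and none of these passed.

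Kcnc1 and Kcnc2 are the Kv3 genes of fast-spiking cells, and each had a bright probe set, so the 250 bases before their annotated starts are shown (RefSeq, assembly GRCr8), with the GC box GGGCGG, searched on both strands, in capitals. The first of the annotated Kcnc2 starts is used. Kcna1 also had a bright probe set, but no promoter window was available for it. Both genes are on the plus strand, Kcnc1 at chr1:106038997-106039246 and Kcnc2 at chr7:49587364-49587613.
Kcnc1: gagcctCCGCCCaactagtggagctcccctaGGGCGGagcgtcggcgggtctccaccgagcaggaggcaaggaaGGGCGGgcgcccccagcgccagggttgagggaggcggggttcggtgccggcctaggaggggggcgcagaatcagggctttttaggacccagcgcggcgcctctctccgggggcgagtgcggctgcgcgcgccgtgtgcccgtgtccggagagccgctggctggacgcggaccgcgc
Kcnc2: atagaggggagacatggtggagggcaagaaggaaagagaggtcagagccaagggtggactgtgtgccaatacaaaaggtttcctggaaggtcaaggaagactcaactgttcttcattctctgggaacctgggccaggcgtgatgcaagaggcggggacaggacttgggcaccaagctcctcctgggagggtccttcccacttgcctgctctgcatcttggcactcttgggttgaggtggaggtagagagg
The Kcnc1 window held 3 GC boxes and 74.4% G and C, and the Kcnc2 window 0 and 56% G and C. GC boxes were found in 30.5% of all 33469 promoter windows of this length, whose median share of G and C was 51.2%. The core of the cyclic AMP response element, TGACG, searched on both strands, was in neither window and in 18.2% of all windows. The windows of Kcna2 and Kcna3, whose probe sets were dim, held 3 GC boxes each. Those of Kcna5 and Kcna6 held 0.

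Kcnc1 was measured by 1368524_at. Its lowest, median and highest log2 levels were 8.46, 8.55 and 8.81 in control animals and 8.34, 8.45 and 8.74 in learning animals. Of the 7 learning animals, 4 lay below the lowest control animal and 2, replicates 4 and 5, lay above the control mean. The means were 8.50 ± 0.17 and 8.59 ± 0.12, a log2 fold change of -0.086 (SE 0.0748, 95% interval -0.25 to 0.074), less than the spread between animals (limma adjusted p = 0.566). Without control replicate 5 it was -0.049 (limma adjusted p = 0.779).

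Kcnc2 gave opposite directions at different probe sets. The 6 probe sets are annotated with 4 sequence records, 3 of them with the same one. The gene has alternatively spliced transcripts, and which of them each probe set reads was not settled. At the brightest, 1370439_a_at, the lowest, median and highest log2 levels were 8.79, 8.93 and 9.05 in control animals and 8.56, 8.78 and 8.87 in learning animals. All 7 learning animals lay below the control mean and 4 below the lowest control animal. The log2 fold change of -0.18 (SE 0.0566, 95% interval -0.30 to -0.061) did not pass (limma adjusted p = 0.0937), and it had the lowest adjusted p of the 8 tested probe sets.

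The next brightest Kcnc2 probe set, 1370559_at, pointed the other way. Its lowest, median and highest log2 levels were 5.43, 5.64 and 5.68 in control animals and 5.66, 5.70 and 6.28 in learning animals. All 7 learning animals lay above the control mean and 5 above the highest control animal, and learning replicate 7 was far above the rest. The log2 fold change was 0.20 (SE 0.0832, limma adjusted p = 0.198), and 0.12 without learning replicate 7.

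The remaining tested Kcnc2 probe sets lay within 0.11 log2 units of the cutoff, and they are not shown to be above background. At 1370558_a_at and 1370557_a_at the control mean lay below the cutoff, and these were tested only through their higher learning values. At 1370558_a_at the levels were 3.87 ± 0.14 in control and 4.10 ± 0.21 in learning animals, with 3 learning animals above the highest control animal. At 1388225_at they were 3.89 ± 0.08 and 4.02 ± 0.10, and at 1370557_a_at 3.81 ± 0.14 and 4.03 ± 0.16. The groups did not overlap at these last 2, the lowest learning value being 3.95 against a highest control value of 3.94 at 1388225_at and 3.91 against 3.90 at 1370557_a_at. Over the whole array 2.1% of tested probe sets did not overlap, 1.73% with learning above control, and because of how 1370557_a_at passed the filter nothing is read from this comparison. The log2 fold changes were 0.23, 0.13 and 0.23, with SEs of 0.0897, 0.0483 and 0.0751, and none passed (limma adjusted p = 0.165, 0.142 and 0.109). The nearest member below the cutoff was Kcna5 with a mean of 2.62, and the sixth Kcnc2 probe set, 1371200_at, was the dimmest of all 14, with a mean of 1.85 in both groups.

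The contrast within Kcnc2 was measured in each array as the mean of the 4 dimmer tested probe sets minus the brightest, a choice made after the opposite directions were seen, so the values are a description with no test. This difference ran from -4.89 to -4.52 in control animals and from -4.42 to -4.12 in learning animals, and the groups did not overlap. Of the 4 dimmer probe sets, 2 passed the filter only through their higher learning values, so nothing is read from this lack of overlap. Its mean was -4.64 ± 0.12 in control and -4.26 ± 0.11 in learning animals, a shift of 0.38 (7 animals per group). With any 1 array left out the shift lay between 0.34 and 0.40. It compares arrays only, because the probes of different sets bind with different strength.

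The same kind of difference moved in the rest of the array. Over 349 genes other than the members with tested probe sets 2 or more log2 units apart, the mean of the dimmest minus the brightest was -3.41 ± 0.11 in the 7 control arrays and -3.24 ± 0.03 in the 7 learning arrays (exact two-sided permutation p = 5.83e-04, the smallest that reassigning the 14 arrays can give, adjusted p = 0.00816). With this balance as covariate the brightest Kcnc2 probe set had a log2 fold change of -0.12, and the dimmer 4 had 0.092, 0.10, 0.030 and 0.30 in order of level, with limma adjusted p-values between 0.488 and 0.918. The fold change of Kcna1 was 1.47e-05 in that fit, and that of Kcnc1 turned to 0.073. The balance differed between the groups, so a fit with it also takes out part of any difference between them.

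**Figure D3:**
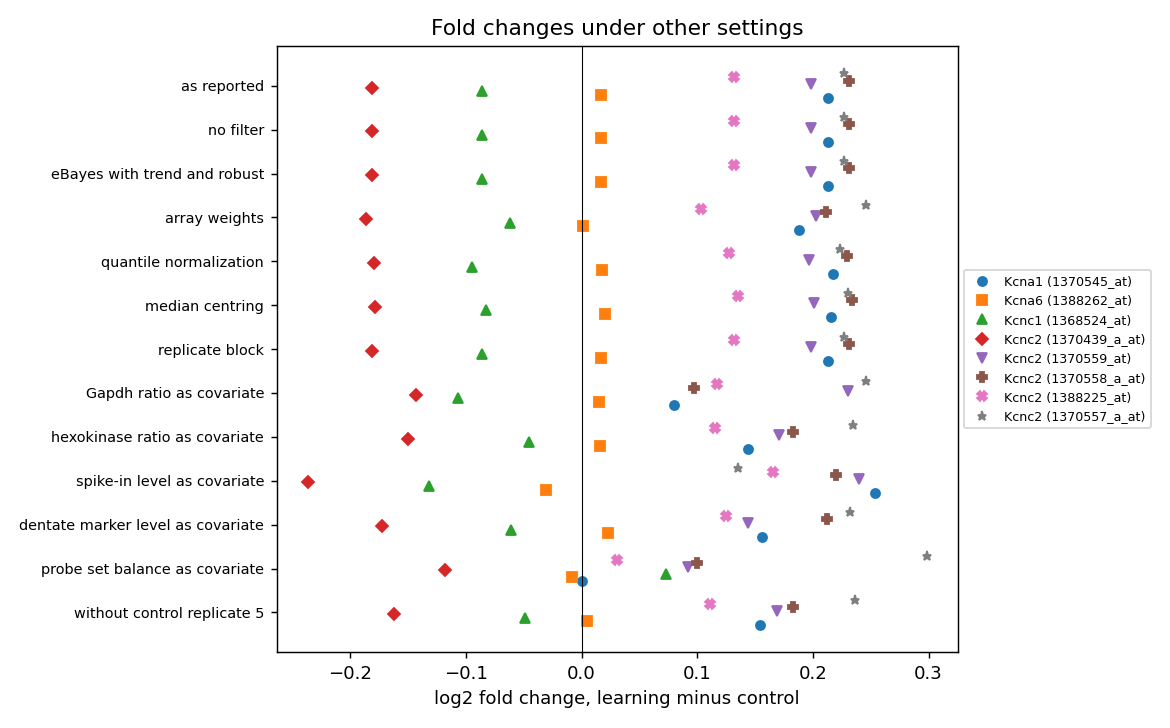
Log2 fold change, learning minus control (horizontal axis), of the 8 tested probe sets as reported and under 12 other settings (rows), 1 marker shape per probe set. The brightest Kcnc2 probe set stays below 0 and the 4 dimmer ones above 0 in every row, while Kcna1 falls to 0.080 with the Gapdh ratio and to 1.47e-05 with the probe set balance as covariate.

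Averaged over all 6 probe sets, Kcnc2 had 4.76 ± 0.05 in learning and 4.66 ± 0.05 in control animals. The difference was 0.10 (two-sided exact permutation p = 0.00466, not adjusted), with the sign of its dimmer probe sets and opposite to its brightest. This mean takes in the dim 1371200_at and the probe sets close to the cutoff, and the opposite directions were already known. No change of the gene is read from it. The mean of both Kcna6 probe sets differed by 0.013 (exact permutation p = 0.561). Among markers of interneurons, in which Kv3 channels are prominent, 10 of 11 measured genes lay above the dim cutoff, and their mean ran from 7.02 to 7.22 in control and from 6.87 to 7.31 in learning arrays (exact permutation p = 0.358). Of these 10 markers, 9 had a fold change below 0, down to -0.35 for Reln, and Gad2 alone lay above it, with 0.76 (limma adjusted p = 0.110). None of the 10 passed (limma adjusted p from 0.110 to 0.862). Pvalb, the marker of parvalbumin cells, had 8.17 ± 0.13 in learning and 8.29 ± 0.09 in control animals (limma adjusted p = 0.284). The part of interneuron content in the Kcnc1 and Kcnc2 values was not tested.

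Across the 14 arrays, after the mean of each group was removed, the member probe sets had little in common. Pearson's r between Kcnc1 and the brightest Kcnc2 probe set was 0.50, and between Kcna1 and the Kcnc2 probe set 1370558_a_at it was 0.57, the highest among the 28 pairs. Among the 10 pairs of Kcnc2 probe sets r ran from -0.33 to 0.23. All of these values come from the same 14 arrays and share their normalization and RNA quality.

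For each tested probe set, the genes whose levels followed it most closely over the 14 arrays were found in the same way, as a description. Each r is among the highest over all tested probe sets of other genes, so it is high partly by selection. No link between genes is read from it. Kcna1 was followed most closely by Vamp1, a vesicle fusion protein (r = 0.91), and Dag1, which encodes dystroglycan (r = 0.88). Vamp1 had a log2 fold change of 0.31 and did not pass (limma adjusted p = 0.148). Kcnc1 was nearest to Chka, a choline kinase (r = 0.85), and the splicing factor Srsf1 (r = 0.81), and the brightest Kcnc2 probe set to Daam1, a formin (r = 0.85), and the kinase Tlk2 (r = 0.81). Kcna6 was nearest to Trib3 and Fcgbpl1 (r = 0.97 for both), all of them within about 1 log2 unit of the dim cutoff. The dimmer Kcnc2 probe sets were nearest to Afdn and Trip12, Nufip1 and Mrpl50, Slc14a2 and Zfp652, and Dctn6 and Oip5-as1 (r from 0.83 to 0.94), so no neighbour was shared between them. None of these 16 genes passed, with limma adjusted p-values from 0.148 to 0.983.

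Other genes of the same channels were taken at their brightest probe sets, where 2.57% of 6836 genes passed, 1.59% higher and 0.98% lower. Of the other Kv1 to Kv3 subunits, Kcna4 and Kcnc4 were measured out of 6 and neither passed. Kcna4, an inactivating Kv1 subunit, had a log2 fold change of 0.13 (limma adjusted p = 0.492). Kcnc4, the inactivating Kv3 subunit, had -0.24 (limma adjusted p = 0.304), with 5.62 ± 0.18 in learning and 5.87 ± 0.32 in control animals.

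Of 18 genes for Kv beta, silent and KCNE subunits, 13 were measured, 7 of them dim, and 1 of the 6 tested rose. This was Kcnab1, a beta subunit that binds Kv1 channels and speeds their inactivation, with 7.08 ± 0.07 in learning and 6.63 ± 0.15 in control animals, a 1.36-fold difference (log2 fold change 0.45, SE 0.0608, limma adjusted p = 0.00323, all 7 learning animals above the control mean). It was still called in 26 of 27 other settings and not with the probe set balance as covariate (0.30, limma adjusted p = 0.321). The brightest of the list, Kcnab2 and Kcng2, had 0.00041 and -0.015 (limma adjusted p = 0.998 and 0.877). At their other tested probe sets, which were dimmer, they had 0.17 and 0.0093 (limma adjusted p = 0.765 and 0.957). The median of the 6 was 0.0052, against -0.027 over the 6836 genes.

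Of 22 genes for Kv4, Kv7 and EAG channels and Kv4 partners, 18 were measured, 6 of them dim, and 2 of the 12 tested rose. Kcnq3, a subunit of the M-type potassium channel, rose by 0.71 on the log2 scale (SE 0.169, limma adjusted p = 0.0366), and Kcnip4, a calcium-binding partner of Kv4 channels, by 0.44 (SE 0.112, limma adjusted p = 0.0440). Kcnq3 was still called in 12 of 26 other settings and Kcnip4 in 7 of 26. With the probe set balance as covariate Kcnq3 had 0.27 (limma adjusted p = 0.740) and Kcnip4 0.14 (limma adjusted p = 0.792). Leaving out any of control replicates 1, 2, 3 and 5 or of learning replicates 4, 6 and 7 ended the call of Kcnq3 (values from 0.60 to 0.74). For Kcnip4 this held of control replicates 1, 2, 3, 4, 5 and 6 and of learning replicates 2, 3, 4, 6 and 7 (values from 0.39 to 0.46). Kcnd2, a Kv4 subunit, had 0.27 at its brightest probe set (limma adjusted p = 0.0573) and 0.61 at its other one, which was called (limma adjusted p = 0.00620), and it is named here after its values were seen. The called Kcnd2 probe set was the dimmer, with a mean of 7.73 against 8.63. The part of the shift in probe set balance in its value was not tested. The brightest, Dpp6 and Kcnip2, had 0.00073 and -0.052 (limma adjusted p = 0.995 and 0.602). At their other tested probe sets, which were dimmer, they had 0.30 and 0.22 (limma adjusted p = 0.179 and 0.371). The median of the 12 was 0.023.

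Of 15 genes that cluster or anchor Kv1 and Kv2 channels, 14 were measured, Dlg2 was dim, and 1 of 13 rose. Ank3, which encodes the ankyrin that organizes the axon initial segment, had 8.84 ± 0.12 in learning and 8.57 ± 0.14 in control animals (log2 fold change 0.28, SE 0.0672, limma adjusted p = 0.0382), and 0.46 at its other tested probe set (limma adjusted p = 0.0186). The call at the brightest held in 11 of 27 other settings and was lost without control replicate 1, 2, 3, 4 or 5 or without learning replicate 4, 5, 6 or 7, with values between 0.24 and 0.28. With the probe set balance as covariate Ank3 had 0.20 at this probe set (limma adjusted p = 0.592). The other Ank3 probe set was the dimmer, with a mean of 7.21 against 8.70. Over the genes used for the balance, dimmer probe sets rose on average against the brightest in the learning arrays. The part of this shift in the 0.46 was not tested, so that value is not read as a second sign of a change. The brightest, Vapa and Adam23, had 0.030 and 0.15 (limma adjusted p = 0.578 and 0.117). Adam23 had -0.041 at its other tested probe set, close to the dim cutoff (limma adjusted p = 0.601). The median of the 13 was -0.027, equal to that of the 6836 genes to this precision.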

How the data were processed

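Arrays of 7 control and 7 learning animals were assigned to groups and replicate numbers from the sample titles. The deposited values are log2 expression levels that the authors made with GCRMA, per the submitters' processing notes, a method with a sequence-based background correction, a normalization between arrays and a summary per probe set. Version and settings: not given in the sources used here. The range of the values gave the log2 scale. GCRMA compresses differences near background. Arrays have no read depth, and their number limits the precision. The labels name biological replicates.

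Genes came from the platform annotation, with symbols updated by Entrez ID to RefSeq GRCr8. All 14 member probe sets matched. The 57 control probe sets and 6346 dim ones (mean under percentile 40, a log2 level of 3.88) were left out. The other 9520 were fitted with limma 3.58.1 in R 4.3.3, without covariates, and called at a Benjamini-Hochberg adjusted p under 0.05. Dim members take their values from the same model without the filter. Errors after ± are SDs of 7 animals. Single values per array were compared by two-sided exact permutation tests. On simulated data with 9520 probe sets the fit recovered 49.3% of changes of 0.2 and 86.6% of changes of 0.4 on the log2 scale, and 7.14% of its calls were false. The simulated noise was independent between probe sets, with no shift shared by the probe sets of an array. These rates therefore need not hold for the real arrays.

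The text names every member probe set, the called genes of each other list (up to 5) and its 2 brightest, and the 2 nearest genes of each tested probe set. Members and lists were chosen with earlier results of these data known. Alternatives were other filters, variance moderation, array weights, normalizations, the replicate block, covariates and each array left out. The same replicate number does not pair animals here.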

Additional observations from a re-analysis of the deposited data

Results flagged for a closer look

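In 6 of the 28 groups of 7 animals formed by the 14 member probe sets, 1 animal lay far from the others by Dixon's criterion. The nominal rate of this by chance is about 1 of 20 groups. The share over all probe sets of the array was not computed, so nothing about the members is read from the count. Kcna2 at 1370612_at had 2.63 in learning replicate 7, against 2.50 in the next animal, at a level below the dim cutoff. Kcnc2 at 1370559_at had 6.28 in the same animal, against 5.86 in the next, and 5.43 in control replicate 5, against 5.58 in the next. Kcnc2 at 1388225_at had 4.25 in learning replicate 6, against 4.01 in the next. Kcnc2 at 1370557_a_at had 4.36 in learning replicate 1, against 4.07 in the next, and 3.49 in control replicate 2, against 3.83 in the next. The extreme animal thus differed between the Kcnc2 probe sets.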

How the results depend on the processing

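No member probe set was called in any of the 27 other settings fitted. The count over all probe sets, 319, was 158 without a filter on dim probe sets, 39 with the Gapdh ratio as covariate, 143 with the spike-in level, 177 with the hexokinase ratio, 99 with the dentate marker level and 0 with the probe set balance, and ran from 163 to 352 with 1 array left out. With the replicate number as a block it was 313. Same-numbered animals had correlations of their deviations from -0.16 to 0.13, over 0.1 in 2 of 7 pairs, so the numbers are not taken to pair animals, and the block called no member (0). Among the members, Kcnc1 turned to 0.073 with the balance as covariate, Kcna6 at 1388262_at to -0.030 with the spike-in level and -0.0085 with the balance, and its dim probe set to -0.0075 with the balance. Kcna3 turned to 5.19e-04 with median centring, and the dim Kcnc2 probe set 1371200_at to 2.31e-04 with it and 5.12e-04 with the spike-in level. Kcnc2 had 0.10 as the mean of its probe sets, against -0.18 at the brightest. With 1 array left out, the values ran from -0.0039 to 0.040 for Kcna6 at 1388262_at, -0.0047 to 0.00088 for Kcna3, -0.037 to 0.032 for Kcnab2, -0.028 to 0.0080 for Kcng2 and -0.018 to 0.021 for Dpp6. Kcnab2 had -0.0062 with quantile normalization, -0.014 with the Gapdh ratio and -0.019 with the spike-in level. Dpp6 had -0.0055 with quantile normalization and -0.016 with the Gapdh ratio. Kcng2 had 0.026, 0.0094 and 0.061 with the Gapdh ratio, the hexokinase ratio and the balance, and Kcnip2 0.037 with the balance. Kcna1 had 0.080 with the Gapdh ratio. The cause of these changes was not tested. Signal over background limits the 6 dim probe sets, 3 of Kcnc2 near the cutoff and Kcna6 at 1388262_at, also close to it.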
